A study of Mus musculus with 38 samples.

Results

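The binding of FosB and of c-Fos was compared in cortical neurons of the mouse that had been depolarised with KCl for 2 h. The comparison takes 8 of the 38 libraries of the series: 4 of FosB with the antibody sc48 and 4 of c-Fos with the antibody sc52, 1 of each from biological samples 3, 4, 5 and 6. Their labels name the protein, the antibody and the culture, and no measured value decides which libraries belong. A biological sample is called a culture from here on, and both libraries of a culture share its number.

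The neurons were taken from C57BL/6 embryos at day 16.5 and used at 7 days in vitro. All had been silenced overnight with 1 µM TTX, which blocks sodium channels, and 100 µM DL-AP5, which blocks NMDA receptors, before KCl was given. Cultures 3 and 4 received no virus, and cultures 5 and 6 were infected with a control shRNA. Protein-DNA complexes were immunoprecipitated and sequenced (ChIP-seq), and the authors deposited a peak list for each library. Other libraries of the same cultures were used as further readouts: c-Fos mapped with a different antibody (sc7202), JunB, FosB and c-Fos in neurons left silenced, and FosB and c-Fos under an shRNA against the protein mapped. H3K27ac is an acetylation of histone H3 that is found at promoters and enhancers in use. The authors' H3K27ac lists merge cultures 1 and 2.

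FosB and c-Fos are members of the Fos family, whose genes are induced within minutes to hours of neuronal activity. Fos proteins bind DNA as a pair with a Jun protein such as JunB, and the pair is the transcription factor AP-1. The pairs of both proteins recognise the same short DNA element, which is found in many enhancers. Each protein was mapped with its own antibody, so a difference between the proteins cannot be told apart from a difference between the antibodies.

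The files hold peaks and no reads, so the sequencing depth of every library is unknown and list length includes it. All positions are 1-based in genome build mm9. The cultures differed from each other in ways that touch the results below. Culture 4 had the shortest list of both proteins, the FosB peaks of culture 5 were as wide as c-Fos peaks, and the FosB list of culture 3 lay in non-distal H3K27ac far more often than the other 3 FosB lists. Whether the cultures came from separate dissections is not given beyond the words of the labels, so the p-values measure the spread between these samples.

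The FosB list was shorter than the c-Fos list in 4 of 4 cultures, and its peaks were narrower. FosB lists held 10898, 4899, 22933 and 14139 peaks in cultures 3, 4, 5 and 6, and c-Fos lists held 22368, 6808, 23578 and 19131. The ratio of FosB to c-Fos was 0.487, 0.720, 0.973 and 0.739, so that culture 5 had lists of nearly the same length. On the log2 scale the mean peak numbers differed by -0.50 ± 0.41 (SD of the 4 within-culture differences), and the ranges of the proteins overlapped (exact two-sided permutation test over 70 splits, p = 0.457, n = 4 against 4). That test does not use the pairing by culture. The exact sign-flip test within cultures gave p = 0.125, the smallest that 4 pairs can give.

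Median FosB peak widths were 208, 187, 767 and 254 bp, against 603, 790, 841 and 785 bp for c-Fos. In cultures 3, 4 and 6 the c-Fos peaks were 2.90, 4.22 and 3.09 times as wide, and in culture 5 only 1.10 times. The difference in mean log2 width was -1.34 ± 0.84 (exact permutation test, p = 0.0571, n = 4 against 4, Benjamini-Hochberg adjusted over 10 tests p = 0.429). A narrow peak can be met by fewer others, so the overlaps of a culture are also given between peak centres.

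**Figure D1:**
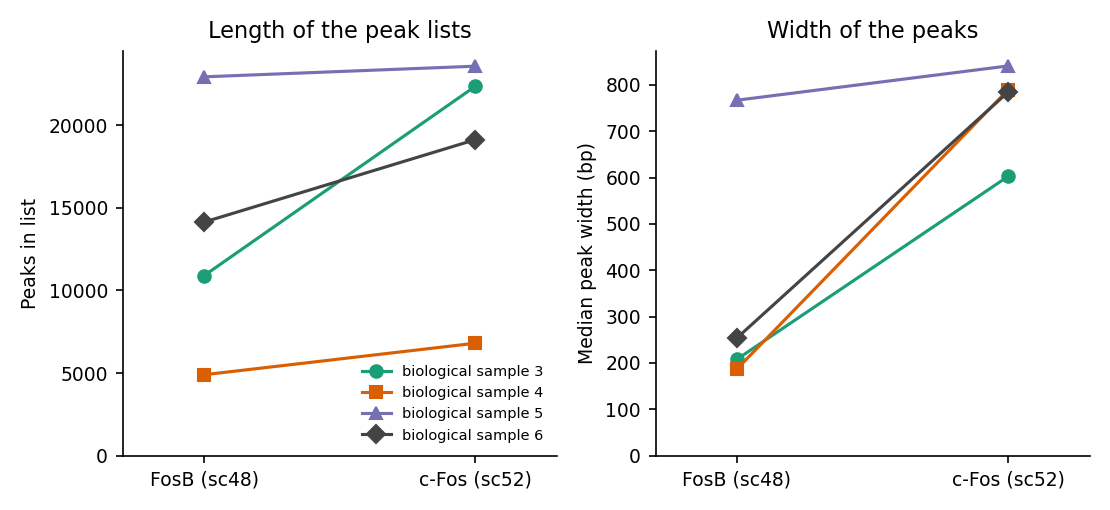
Number of peaks (left) and median peak width in bp (right) of the FosB and c-Fos lists after KCl, with 1 line per culture. Every line rises toward c-Fos, and the FosB library of culture 5 stands apart in width with 767 bp against 187 to 254 bp in the other FosB lists.

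Most FosB peaks lay where c-Fos was also listed in the same culture. This held for 78.7%, 51.01%, 63.1% and 70.5% of FosB peaks in cultures 3, 4, 5 and 6. Each share rests on 4899 peaks or more, and its Wilson 95% interval spans at most 49.6 to 52.4%, the interval of culture 4, which covers counting error only. Counted by centres within 200 bp of each other, the FosB shares were 67.0%, 46.8%, 56.3% and 65.3%, so that culture 4 had fewer shared than unshared peaks by that rule. In the other direction 35.1%, 34.2%, 61.1% and 49.7% of c-Fos peaks met a FosB peak, a mean of 45.02% ± 12.9 (SD, n = 4 cultures).

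Where the 2 proteins met, they met closely. The median distance between the centres of overlapping peaks was 68, 60, 68 and 55 bp, and 64.9% to 74.2% of the pairs had centres within 100 bp. In cultures 3, 4 and 6 the FosB peak lay wholly inside the c-Fos peak in 95.5%, 98.7% and 98.2% of pairs, and in culture 5 in 33.6%. A c-Fos peak that held several separate FosB peaks was uncommon: 8.197%, 5.58%, 1.17% and 4.58% of the shared c-Fos peaks held at least 2, with a highest number of 11 FosB peaks in a single c-Fos peak of culture 4.

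Because list length sets how many peaks can be met, all 8 lists were cut to the 4899 best-scoring peaks, the length of the shortest. At equal length 56.0%, 43.4%, 56.4% and 59.3% of FosB peaks met a c-Fos peak of their culture, a mean of 53.8% ± 7.07 (SD, n = 4). The c-Fos shares were 52.9%, 40.2%, 56.3% and 58.1%, and lists of equal length give nearly equal shares in both directions by construction. Culture 4 was lowest throughout, and without it, with lists of 10898 peaks, the mean FosB share was 61.1%.

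Across cultures, FosB peaks met FosB and c-Fos peaks about equally often at equal length. FosB peaks met FosB of another culture in 42.8% of cases on average (range 30.6 to 53.2% over 12 ordered pairs) and c-Fos of another culture in 42.7% (34.7 to 55.3%). With centres within 200 bp these means were 39.5% and 37.8%. They were 42.8% and 53.1% in full lists, but 42.7% and 35.4% at a score of at least 100. At equal length c-Fos peaks met c-Fos of another culture in 57.7% of cases (51.03 to 69.1%). The closest partner of FosB among the other 7 lists was c-Fos of the same culture in cultures 3, 5 and 6, and FosB of culture 6 (49.7%) for culture 4. For c-Fos it was c-Fos of another culture in cultures 3, 4 and 5 and FosB of the same culture in culture 6. The farthest partner of a FosB list was the FosB list of culture 4 for cultures 3 and 5, and that of culture 3 for cultures 4 and 6. With centres within 200 bp, the farthest from FosB of culture 4 was c-Fos of culture 5 instead (29.5%, against 30.99% for FosB of culture 3). The pairs share libraries, so these are descriptions and no test was made.

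**Figure D2:**
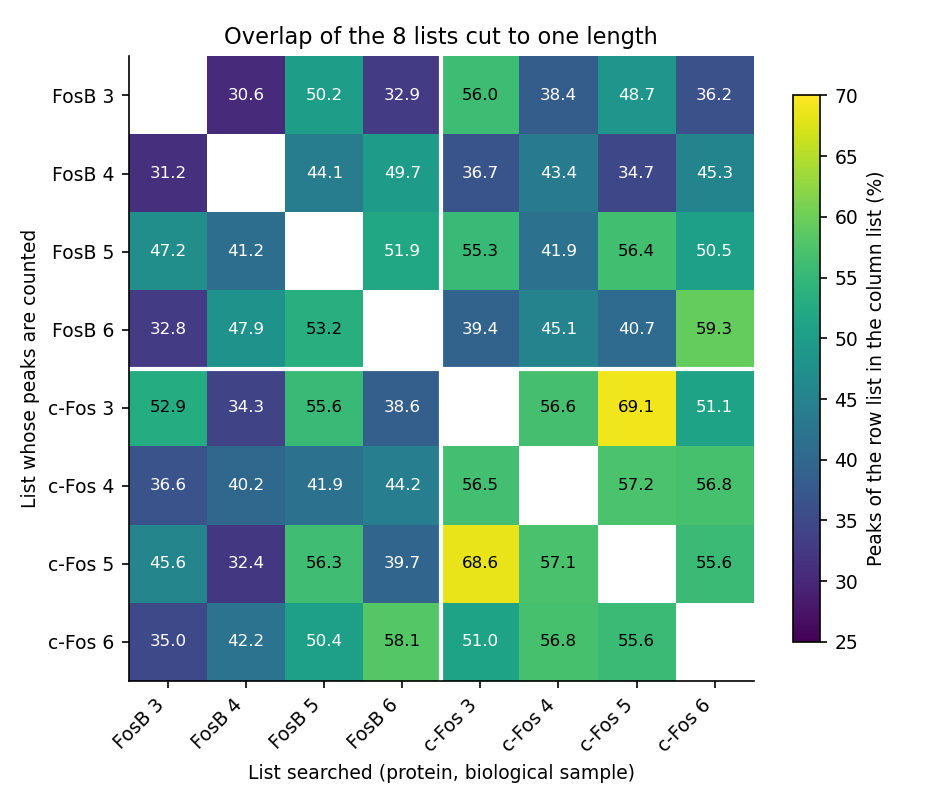
Share of the peaks of the row list that overlap a peak of the column list, in percent, for the 8 KCl lists each cut to 4899 peaks. The numbers are cultures, the upper left block compares FosB with FosB, the lower right block compares c-Fos with c-Fos, and the 4 same-culture values of FosB in c-Fos lie on the diagonal of the upper right block (43.4 to 59.3%).

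The second c-Fos antibody gave a yardstick in cultures 3 and 4. At equal length the c-Fos sc52 peaks met sc7202 peaks of their culture in 62.3% and 53.4% of cases, and the FosB peaks met sc7202 peaks in 47.6% and 47.5%. FosB met sc52 peaks in 56.0% and 43.4%, above its share with sc7202 in culture 3 and below it in culture 4. With JunB, mapped in culture 4 alone, the proteins were close: 54.3% of FosB and 53.6% of c-Fos peaks met a JunB peak at equal length.

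The order of binding strength was also partly shared. Over the 1421 regions with a peak in all 8 lists, the Spearman correlation of the authors' peak scores between FosB and c-Fos was 0.70, 0.49, 0.71 and 0.67 within cultures 3, 4, 5 and 6. It ranged from 0.29 to 0.70 between FosB and c-Fos of different cultures, from 0.40 to 0.65 between FosB lists and from 0.49 to 0.76 between c-Fos lists. The lists of a culture share a biological sample number and may share an input DNA control. The correlations are across regions and carry no p.

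Strong FosB peaks were nearly always c-Fos peaks in the full lists. A higher score means a smaller p-value from the authors' peak caller, and it serves here only to rank peaks within a list. Among the best-scoring 10% of each FosB list, 97.2%, 85.9%, 97.5% and 97.2% overlapped a c-Fos peak, and among the lowest-scoring 10% the shares were 61.2%, 28.4%, 32.8% and 45.2%. The FosB peaks that met c-Fos had median scores of 84.7, 88.6, 104 and 104, against 59.9, 60.3, 65.1 and 61.9 for those that did not. When all lists were limited to scores of at least 100 and cut to 1392 peaks, a mean of 45.7% of FosB peaks met c-Fos.

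Among strong c-Fos peaks the share with a FosB peak was lower in each culture. Both directions use the full lists, of which the c-Fos list was the longer in each culture. List length sets how many peaks can be met, so the part of list length in this contrast was not tested. In the best-scoring 10% of the c-Fos lists 79.5%, 40.7%, 79.5% and 80.6% overlapped FosB, and in cultures 4, 5 and 6 this was below the share of the next 10% (61.5%, 87.1% and 83.3%). Many of these strongest c-Fos peaks were also listed in silenced neurons: 44.1%, 65.8%, 41.9% and 23.8% overlapped an unstimulated sc52 list of culture 3 or 4. Of the peaks in the best 10% that did not, 93.1%, 92.3%, 99.3% and 98.8% overlapped FosB. The best 10% of the FosB lists had 40.3%, 38.0%, 16.96% and 15.6% of its peaks in an unstimulated FosB list, and 95.1% to 99.2% of the others overlapped c-Fos.

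**Figure D3:**
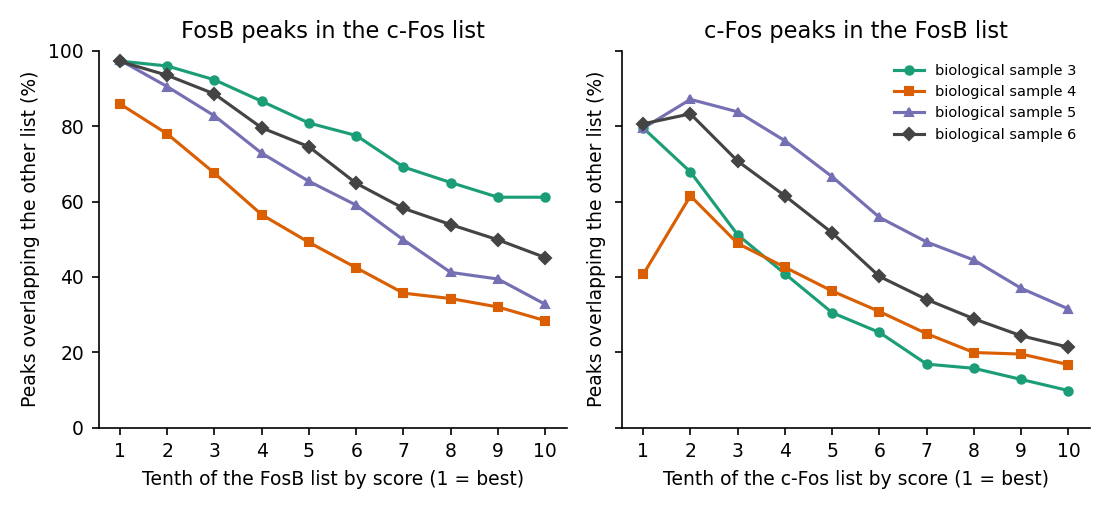
Share of FosB peaks that overlap the c-Fos list of the same culture (left) and of c-Fos peaks that overlap the FosB list (right), in steps of 10% of the list ranked by score, with 1 line per culture. The lists are full and of unequal length. In each culture the share of FosB peaks is lower in the last step than in the first, whereas the c-Fos share in cultures 4, 5 and 6 is lower in the first step than in the second.

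Regions listed for 1 protein in every culture and never for the other were rare for FosB and less so for c-Fos. The peaks of the 8 lists merged into 45170 regions, of which 1421 (3.15%) held a peak in all 8 lists. In all 4 FosB lists and no c-Fos list there were 5 regions (0.0111%), and in all 4 c-Fos lists and no FosB list 403 (0.892%). These were 0.267% of the 1874 regions in all 4 FosB lists and 8.92% of the 4518 in all 4 c-Fos lists. The shares were closer when peaks also listed for the same protein in silenced neurons were left out, an alternative added after the data were seen. They were then 2.70% of 1591 regions for FosB and 3.91% of 3554 for c-Fos, with 43 and 139 regions. Each protein was filtered by its own unstimulated lists. A region can then count for 1 protein alone because the KCl peak of the other was left out. The closer shares can therefore follow from the filter. At equal length the counts were 33 (0.229%), 333 (2.31%) and 736 in all 8 lists (5.11%) of 14408 regions. The FosB count is the most dependent on single libraries: asked of 3 cultures, it ranged from 13 without culture 5 to 106 without culture 3. These were 0.676% and 3.75% of the regions in all 3 FosB lists. The c-Fos count ranged from 574 without culture 3 to 969 without culture 4, which were 11.9% and 10.1% of the regions in all 3 c-Fos lists.

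The 403 regions with c-Fos and no FosB were largely listed with antibody sc52 without stimulation and under c-Fos shRNA as well. The unstimulated sc52 lists of cultures 3 and 4 held 82.6% and 83.1% of them, against 10.6% and 7.04% of the regions in all 8 lists and 6.95% and 3.92% of all merged regions. The unstimulated sc7202 lists of the same cultures held only 27.8% and 0.744% of them, against 2.25% and 0.620% of all merged regions. The c-Fos shRNA lists of cultures 5 and 6 held 86.6% and 83.9% of the 403 regions. They held 40.2% and 8.09% of the regions in all 8 lists and 14.7% and 3.89% of all merged regions. After KCl the antibody sc7202 listed 42.2% and 15.9% of the 403 regions in cultures 3 and 4, and JunB 12.9%. These shares were below those of all merged regions, which were 51.8% and 31.8% for sc7202 and 34.5% for JunB. The regions in all 8 lists were held by sc7202 in 99.9% and 98.8% of cases and by JunB in 99.2%. Of the 403 regions, 282 (69.98%) lay in non-distal H3K27ac peaks, those of the authors' genome-wide list that are not in their distal list, against 5.77% of the regions in all 8 lists and 19.6% of all merged regions. What these regions of the sc52 lists reflect was not tested.

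**Figure D4:**
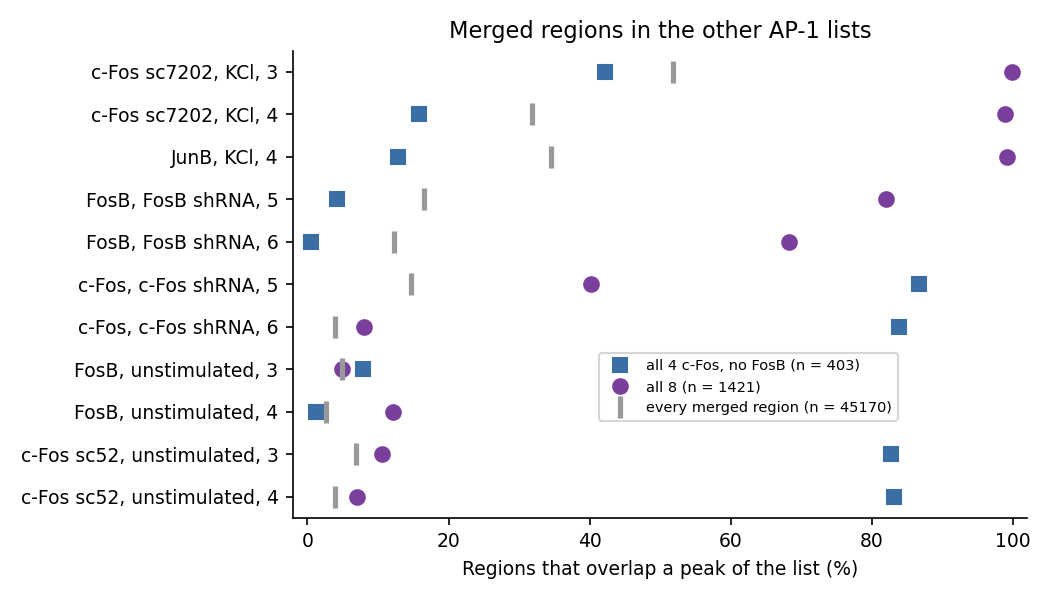
Share of merged regions, in percent, that overlap a peak of other AP-1 lists (rows, with the culture number), for the 403 regions in all 4 c-Fos lists and no FosB list, the 1421 regions in all 8 lists, and all 45170 merged regions. The unstimulated sc7202 and JunB lists are not drawn. The regions with c-Fos alone are at 82.6 to 86.6% in the unstimulated sc52 and c-Fos shRNA lists and at most 42.2% in the others, whereas the regions in all 8 lists are at 98.8 to 99.9% in the sc7202 and JunB lists.

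The regions with the best mean rank in each class show this at single positions. Region chr17:66310473-66311962 led those in all 8 lists. Its FosB peaks scored 3100, 2387.06, 3100 and 3100 in cultures 3, 4, 5 and 6, and its c-Fos peaks scored 3100 in all 4. Some of the strongest peaks of a list share the score of 3100, so that it gives no order among them. Higher scores occur, up to 3210.94 in the c-Fos list of culture 3. The region was listed in neither FosB nor c-Fos library of silenced neurons, and in all 4 libraries under FosB or c-Fos shRNA. At chr13:45718726-45720055, the second region, FosB peaks were 633, 642, 1276 and 727 bp wide and c-Fos peaks 997, 1092, 1232 and 1290 bp wide, so that the narrow FosB lists were also narrow at a strong site. At chr13:58755046-58756892, the third region, FosB in culture 4 was listed as 2 peaks (58755338-58755642 and 58755654-58756484) where the other 7 lists held 1 peak. Region chr15:95106553-95107835 was the fifth. These 4 regions lay outside H3K27ac and in the KCl sc7202 and JunB lists. The fourth region, chr2:98506253-98507928, was listed in all 22 AP-1 libraries of the series, silenced and shRNA libraries included. Its scores in the 8 KCl lists ran from 1636 to 2996.

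The 5 regions with c-Fos and no FosB that ranked best were chr17:86549799-86551000, chr15:78892848-78894144, chr11:119959535-119960714, chr6:70793589-70794951 and chr11:55282195-55283659. Their c-Fos scores ranged from 1399.2 to 3087.53, among the highest of the lists. All 5 were in both unstimulated sc52 lists and in both c-Fos shRNA lists, and none was in the KCl JunB list. All 5 were also in the KCl and the unstimulated sc7202 lists of culture 3, and the fifth was in the unstimulated FosB list of culture 3. Except for the first, they lay in non-distal H3K27ac peaks that were also listed in silenced neurons.

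The 5 regions with FosB and no c-Fos had lower scores. The best was chr7:89919278-89920882, where the strongest FosB peak scored 486.25, 171.54, 477.64 and 82.82 in cultures 3, 4, 5 and 6. It was in both unstimulated FosB lists, in both FosB shRNA lists, in the unstimulated sc52 list of culture 3 and in the KCl sc7202 list of culture 3. The second, chrX:3846592-3846933, was also in both unstimulated and both FosB shRNA lists. At chr3:136643958-136644865 both sc7202 lists and JunB held a peak after KCl, so that c-Fos was listed there with the other antibody. The sc52 list of culture 5 under c-Fos shRNA held it too. The fourth was chr14:51627688-51628724, listed with sc7202 in culture 3 and with JunB. The fifth, chr9:121021058-121021695, scored 56.52, 55.31, 63.19 and 153.91 and was the only one of the 5 in no unstimulated and no FosB shRNA list, and JunB was listed there. It holds an enhancer of the authors' class without H3K27ac.

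Where peaks lay relative to H3K27ac varied more between cultures than between the proteins. At equal length FosB peaks lay in non-distal H3K27ac in 47.4%, 4.86%, 16.9% and 3.16% of cases in cultures 3, 4, 5 and 6, and c-Fos peaks in 35.6%, 23.1%, 32.9% and 12.8%. FosB was the lower in 3 of 4 cultures and the higher in culture 3. The difference was -8.02 ± 13.7 percentage points (SD of 4 differences, exact permutation test, p = 0.514, n = 4 against 4). It was -14.6 points without culture 3 and -22.6 among peaks with a score of at least 100 (exact permutation p = 0.0857). Without culture 4 it was -0.957, with lists of 10898 peaks in place of 4899. Peaks in distal H3K27ac made up 26.7% ± 4.07 of FosB and 25.8% ± 0.70 of c-Fos lists, and peaks outside H3K27ac 55.2% ± 17.7 and 48.2% ± 10.3 (SD, n = 4, exact permutation p = 0.743 and 0.514). The difference outside H3K27ac, 7.04 points, was 11.7 without culture 3 and 17.996 at a score of at least 100. Without culture 4, again with lists of 10898 peaks, it was 1.14.

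The non-distal difference moved with the peaks that were also listed without stimulation. Between 62.3% and 75.2% of the KCl c-Fos peaks that overlapped an unstimulated sc52 list lay in non-distal H3K27ac. Of the KCl FosB peaks that overlapped an unstimulated FosB list, 71.5%, 4.86%, 52.6% and 5.71% did in cultures 3, 4, 5 and 6, so that those of cultures 3 and 5 were also mostly non-distal. In an alternative added after the data were seen, FosB peaks in an unstimulated FosB list and c-Fos peaks in an unstimulated sc52 list were left out and all lists cut to 4179 peaks. Non-distal H3K27ac then held 39.2%, 4.86%, 12.8% and 3.06% of FosB peaks, against 17.8%, 5.79%, 12.9% and 3.37% of c-Fos peaks. The proteins were then within 1 percentage point of each other in cultures 4, 5 and 6, and the mean difference of 5.02 points had the other sign (exact permutation p = 0.8286, n = 4 against 4), with FosB the higher in culture 3 alone.

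The authors placed some of 11830 distal sites with the acetyltransferase CBP and the enhancer mark H3K4me1 into classes by H3K27ac after KCl: increasing (1468 sites), constant (800), decreasing (738) and without H3K27ac (1886). At equal length a FosB peak covered 16.1%, 16.3%, 27.8% and 22.3% of increasing enhancers in cultures 3, 4, 5 and 6, and a c-Fos peak 22.5%, 22.4%, 22.8% and 24.5%. FosB was lower in 3 of 4 cultures and higher in culture 5, whose FosB peaks were wide (exact permutation p = 0.314, n = 4 against 4). Constant enhancers were covered in 8.19% ± 2.84 by FosB and 7.28% ± 0.34 by c-Fos, decreasing ones in 5.86% ± 1.10 and 4.27% ± 1.16, and those with no H3K27ac in 11.8% ± 3.37 and 10.7% ± 1.10 (SD, n = 4). None of these differences passed the permutation test, whose p lay between 0.143 and 0.914.

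**Figure D5:**
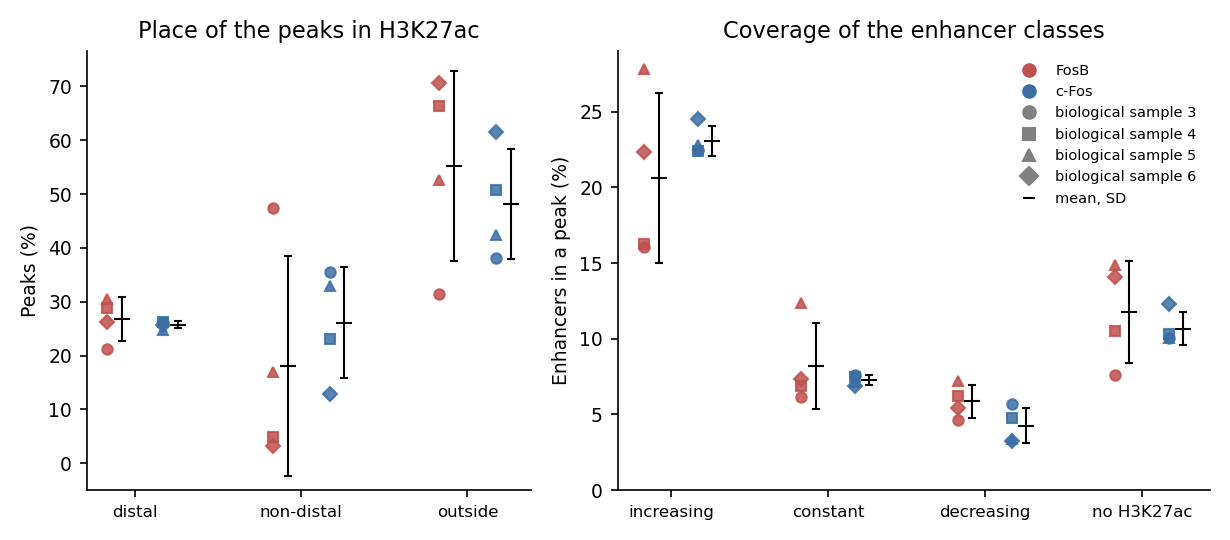
Share of peaks by place in H3K27ac after KCl (left) and share of enhancers of each class that lie in a peak (right), in percent, for FosB and c-Fos lists cut to 4899 peaks. Points are libraries with the symbol of their culture, and bars are means with SD (n = 4). The FosB libraries run from 3.16 to 47.4% of peaks in non-distal H3K27ac and the c-Fos libraries from 12.8 to 35.6%.

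At equal length FosB leaned less toward the increasing class than c-Fos in each culture. The log2 ratio of increasing to constant coverage was 1.39, 1.24, 1.17 and 1.60 for FosB in cultures 3, 4, 5 and 6, and 1.56, 1.58, 1.68 and 1.83 for c-Fos. The difference was -0.31 ± 0.15 (SD of 4 differences) and FosB was lower in 4 of 4 cultures, but the exact permutation test did not pass (p = 0.0857, n = 4 against 4, Benjamini-Hochberg adjusted p = 0.429). With the full lists the mean difference was -0.14 (exact permutation p = 0.457), and culture 3 went the other way with 1.07 for FosB and 0.98 for c-Fos. With a peak centre within 200 bp in place of coverage, a measure that does not use peak width, the difference was -0.44 and the exact permutation p was 0.0286, unadjusted and the smallest that 4 against 4 libraries can give. Without peaks listed in silenced neurons it was -0.17 (exact permutation p = 0.229).

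The enhancers where FosB was found without c-Fos differed between the classes. At equal length a c-Fos peak of the same culture covered 80.9%, 71.1%, 71.6% and 73.5% of the increasing enhancers that a FosB peak covered, and 58.8%, 37.0%, 35.8% and 40.0% of the decreasing enhancers that a FosB peak covered. The difference was 31.4 ± 6.24 percentage points (SD, n = 4) and positive in 4 of 4 cultures. In the full lists it was 25.7 ± 8.35 points, also in 4 of 4. Of the sites with c-Fos, FosB covered 65.9% ± 15.5 in the increasing and 59.7% ± 14.0 in the decreasing class at equal length (SD, n = 4), a difference of 6.201 ± 5.35 points. The classes also differ in how often c-Fos was found at all, so these shares describe the sites and were not tested.

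Over all 11830 distal sites, 505 (4.27%) were covered in all 8 lists, 16 (0.135%) in all 4 c-Fos lists and no FosB list, and 0 (0%) in all 4 FosB lists and no c-Fos list. The increasing class had 134 of its 1468 sites (9.13%) in all 8 lists, above the 4.27% of all distal sites, and the decreasing class had 8 of 738 (1.08%), below it. Of the 16 sites with c-Fos in each culture and no FosB, 4 were increasing, 0 constant, 1 decreasing and 3 without H3K27ac, and the remainder were in no class. Of the 12594 sites that the authors combined from c-Fos libraries, the full FosB lists held 24.9%, 15.8%, 74.1% and 47.7% in cultures 3, 4, 5 and 6, and lists of equal length 14.6%, 15.8%, 26.9% and 25.6%. All 4 full FosB lists held 1064 of them (8.45%) and none held 2215 (17.6%).

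Peaks shared by both proteins differed from the others in the remaining readouts. FosB peaks shared with c-Fos were also in the sc7202 list of their culture in 80.5% and 94.9% of cases in cultures 3 and 4, against 32.2% and 46.1% of FosB peaks without sc52 c-Fos. In culture 4, JunB was listed at 97.5% of shared and 65.2% of unshared FosB peaks, and at 97.6% of shared and 62.4% of unshared c-Fos peaks. Shared FosB peaks were found in at least 1 other FosB list in 82.1%, 96.9%, 67.5% and 79.9% of cases, and unshared ones in 35.2%, 69.3%, 29.5% and 41.8%. Shared peaks also scored higher, as given above, and the part of peak strength in these shares was not tested.

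Under an shRNA against the protein mapped, the share of peaks still listed was higher for shared than for unshared FosB peaks, and lower for shared than for unshared c-Fos peaks, in both cultures. FosB shRNA left 32.9% and 33.8% of the shared FosB peaks of cultures 5 and 6, and 19.3% and 21.2% of the unshared ones. c-Fos shRNA left 22.1% and 2.02% of the shared c-Fos peaks, and 23.1% and 8.84% of the unshared ones. In silenced neurons, 19.0% and 7.17% of the shared KCl c-Fos peaks of cultures 3 and 4 were listed, against 9.12% and 24.6% of the unshared ones, so that the order of the classes differed between these cultures. For FosB these shares were 15.6% and 13.1% of shared and 12.1% and 15.0% of unshared peaks. Among the FosB peaks in KCl H3K27ac, 13.03%, 39.6%, 20.2% and 39.6% of the shared and 5.34%, 22.96%, 15.2% and 26.1% of the unshared ones met an H3K27ac peak after KCl and none of silenced neurons, and the share was higher for shared peaks in 4 of 4 cultures. For c-Fos these shares were 13.9%, 39.5%, 20.4% and 38.2% of shared and 16.6%, 19.2%, 11.1% and 22.1% of unshared peaks, higher for shared peaks in cultures 4, 5 and 6 and lower in culture 3.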

How the data were processed

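The submitters' processing notes name BWA and the build mm9. Peak names in the deposited lists begin with MACS, while neither its version nor the control library is given in the sources used here. A deposited AP-1 list came from 1 library. The peak score in the deposited files starts at 50, a p-value of 1e-05 on the scale of MACS, and was used only to rank or filter peaks within a list. The deposited enhancer and combined c-Fos lists hold single positions. H3K27ac lists were merged over 2 biological samples by the authors, per the labels. A peak was counted as non-distal when it met any non-distal H3K27ac peak by at least 1 bp, and otherwise as distal when it met a distal one. An H3K27ac site seen after KCl alone was read peak by peak: the AP-1 peak met a KCl and no unstimulated H3K27ac peak.

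Peaks overlapped at 1 bp or more. Lists were cut by score, ties by position. The means of 4 FosB and 4 c-Fos libraries were compared by an exact two-sided permutation test over 70 splits, Benjamini-Hochberg adjusted over 10 tests. The numbers pair the libraries because they mark a biological sample in the labels, and at equal length c-Fos of the same number was the closest c-Fos list to FosB in 3 of 4 cultures. Alternatives were a score of at least 100, autosomes only, peaks within 500 bp merged, other overlap rules, full lists, lists cut by culture, each culture left out, cultures with and without control shRNA apart, and the replicate block. Regions named were the 5 of best mean rank in each class. The members and the tests were chosen with earlier results of these data known. The overlap and the permutation test were tested on simulated lists. An mm9 genome was not used here, so sequences, motifs and genes are not analysed here, and input DNA was not used. The software was scipy 1.17.1, numpy 2.4.6 and Python 3.11.15, and figures were drawn in matplotlib 3.10.9.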

Additional observations from a re-analysis of the deposited data

Results flagged for a closer look

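In the 33 groups of 4 values examined, about 1 in 20 would have a sample far from the others by chance. The c-Fos list of culture 4 was shorter than the other 3 c-Fos lists, at 12.73 on the log2 scale (6808 peaks). At equal length the c-Fos list of culture 6 covered 12.3% of the enhancers with no H3K27ac, above the 10.02 to 10.3% of the other 3. The coverage of constant enhancers was lower for FosB than for c-Fos in both cultures without virus, by a mean of -1.06 percentage points, and higher in both cultures with control shRNA, by 2.88 points. Most of the latter came from culture 5, whose FosB peaks were wide (12.375% for FosB and 7.125% for c-Fos). In culture 6 the values were 7.375% and 6.875%. The difference between the pairs of cultures was not tested.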

How the results depend on the processing

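None of the 10 tests passed 0.05 in its main form, so changes of sign below are those of small differences. With the replicate block (exact sign-flip test within cultures, smallest possible p = 0.125) no call changed. The log2 ratio of increasing to constant coverage differed by -0.31, log2 width by -1.34 and log2 number of peaks by -0.50, all with that p. A score of at least 100 gave increasing coverage 0.783 points higher in FosB (the opposite sign) and decreasing coverage 0.678 points higher (exact p = 0.0286). Peak centres within 200 bp gave 0.0681 points for increasing enhancers and a log2 ratio of -0.44 (exact p = 0.0286). Without peaks listed in silenced neurons (an alternative added after the data were seen) FosB minus c-Fos was -1.96 points for distal, 5.02 for non-distal and -3.06 outside H3K27ac, and -0.906 for constant and -0.769 for no-H3K27ac enhancers. In cultures 3 and 4 alone it was -1.19 for distal peaks, -1.06 for constant and -1.14 for no-H3K27ac enhancers. Full lists gave -3.91 for constant, -1.59 for decreasing and -7.79 for no-H3K27ac enhancers, and lists cut to the shorter of each culture -0.928 for the last. Leaving out each culture gave -0.626 to 2.99 for distal peaks, -14.6 to -0.957 for non-distal peaks and 1.14 to 11.7 for peaks outside H3K27ac. It gave -0.542 to 1.71 for constant and -0.813 to 2.26 for no-H3K27ac enhancers. The sign changed without culture 4 (distal -0.184, no-H3K27ac -0.813) or culture 5 (distal -0.626, constant -0.542, no-H3K27ac -0.177). Without culture 4 the lists were cut to 10898 peaks in place of 4899, so that list length changed along with the cultures.

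The share of FosB peaks that met c-Fos at equal length was 45.7% at a score of at least 100, 61.9% in cultures 5 and 6, 65.8% in full lists and 51.9 to 61.1% without a culture. The cut lists were longer in some of these settings, with 14139 peaks in cultures 5 and 6 and 10898 without culture 4. The share of FosB peaks that met FosB of another culture was 30.9% in cultures 3 and 4 and 51.97% in 5 and 6. It was 42.7% at a score of at least 100 and 42.8% in full lists. With c-Fos of another culture it was 35.4% at a score of at least 100, 50.3% in cultures 5 and 6 and 53.1% in full lists. Regions in FosB lists alone numbered 33 at equal length, 43 without peaks of silenced neurons and 13 to 106 without a culture. These were 3.10%, 2.70% and 0.676 to 3.75% of the regions in every FosB list. Regions in c-Fos lists alone numbered 139 without peaks of silenced neurons and 574 to 969 without a culture. These were 3.91% and 10.1 to 16.7% of the regions in every c-Fos list. Without peaks of silenced neurons, a region can count for 1 protein alone because the KCl peak of the other was left out. Regions in all lists numbered 736 at equal length and 1451 to 3287 without a culture, 5.11% and 3.86 to 7.41% of the merged regions. The cause of these changes was not tested. The smallest p is 0.0286 for 4 against 4 libraries, 0.1 for 3 against 3 and 0.333 for 2 against 2, and the unknown depth limits what list lengths show.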
